A study of Mus musculus with 6 samples.

Results

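Matrix metalloproteinases (MMPs), their tissue inhibitors (TIMPs) and the ADAMTS proteases decide how fast the extracellular matrix is cut, and their genes were followed in GC-1 spg cells, a mouse line that was immortalised from type B spermatogonia. The genes were chosen by symbol alone: protein-coding rows named Mmp and a number, Timp and a digit, or Adamts and a number, without the Adamtsl genes. The rule gave 46 of the 57180 genes in the deposited table, namely 23 Mmp, 4 Timp and 19 Adamts genes. Of the 6 libraries, 3 came from cells labelled as overexpressing SNHG1, a small nucleolar RNA host gene, and 3 from cells labelled as vector control, all collected 24 hours after transfection. All 6 libraries also carry the treatment label non-obstructive azoospermia, the name of a form of male infertility, although the samples are cultures of a mouse line. Only this line was used, and the labels give neither the sequence of the construct nor whether replicates were separate cultures. The p-values therefore cover only the spread among these libraries, part of which may be technical.

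MMPs are zinc proteases that are made as inactive precursors and cut collagens, gelatin, fibronectin and other matrix proteins, at the cell surface or after secretion. TIMPs are small secreted proteins that plug the active site of MMPs and of some ADAM and ADAMTS proteases. ADAMTS enzymes are secreted relatives that trim procollagens, cleave the proteoglycans versican and aggrecan, or act on fibrillin and other matrix partners. In the testis, somatic cells of the tubule make MMP2, MMP9 and TIMPs, and matrix cutting is thought to take part in the passage of germ cells through the blood-testis barrier.

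Total counts ran from 19204858 to 21058425 in the libraries labelled SNHG1 overexpression, here called SNHG1-labelled, and from 15521900 to 21095427 in vector libraries. Snhg1 itself had 467, 555 and 487 counts in SNHG1-labelled libraries and 464, 402 and 385 in vector libraries, with a log2 fold change of 0.14 ± 0.10 (SE), and it did not pass the test (edgeR, adjusted p = 0.52). The groups overlapped in CPM (counts per 1000000 counts of the library), so the groups are named by their labels and every direction below is that of the labels. SNHG1 overexpression replicate 1 stood apart from its group: chi-square per degree of freedom over gene counts was 16.1 and 16.7 in its pairs with replicates 2 and 3, and 11.3 between those. Of 13 spermatogonial marker genes, 11 summed to fewer than 10 counts over the 6 libraries. Ddx4, Zbtb16, Kit, Sall4, Id4 and Sohlh1 had no count, so this general spermatogonial list does not back the labelled cell type in either group. Not every gene of the list need be expressed in type B spermatogonia. The 13 genes summed to 5.18 to 5.60 CPM in SNHG1-labelled and 4.58 to 5.52 CPM in vector libraries. A list of 9 Sertoli cell genes summed to 611 to 708 CPM in SNHG1-labelled and 586 to 620 CPM in vector libraries. Of these 9, 3 had no count, and the sum does not name a cell type either. Col1a2, a collagen chain typical of mesenchymal cells, averaged 13158 ± 97.6 CPM in SNHG1-labelled libraries, against 16155 ± 455 CPM in the vector group (SD, n = 3 each). Col1a2 was picked from a list of 10 peritubular and fibroblast-like genes. Of these 2 had no count and 6 were tested. Within this list Col1a2 fell, whereas Pdgfra rose by 0.47 on the log2 scale (edgeR, adjusted p = 0.0143). Col1a2 alone therefore does not name a cell type.

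In SNHG1-labelled libraries, the gelatinase Mmp9, the inhibitor Timp1 and the protease Adamts7 rose, and Adamts1, Adamts5, Adamts12 and the inhibitor Timp2 fell. Of the 46 genes, 17 had no count in any library, 10 had too few counts to test, and 19 were tested. Of these 19, 3 rose and 4 fell at an adjusted p of at most 0.05 (edgeR quasi-likelihood F test, Benjamini-Hochberg over all 14605 genes tested), which is 36.8% in either direction. Over all genes tested 2.4% passed, 1.54% that rose and 0.856% that fell. Abundant genes are called more readily: among genes with a mean of at least 20 CPM, 6 of 13 MMP, TIMP and ADAMTS genes passed, against 3.43% of 8231 genes. The groups did not overlap in CPM for 4 genes that were higher and 8 that were lower in SNHG1-labelled libraries, together 12 of 19. Over all genes tested 23.7% were separate in this way, 11.3% higher and 12.4% lower. The median log2 fold change of the 19 was -0.24, and that of all genes tested was 0.007. Call numbers depended on single libraries. The count of 7 became 9 without SNHG1 overexpression replicate 1, 2 without replicate 2 and 5 without replicate 3, where 5.42%, 1.09% and 1.18% of all genes passed. It became 2, 4 and 3 without vector control replicates 1, 2 and 3, where 0.828%, 1.01% and 0.957% of all genes passed. DESeq2 called 9 of the 19, against 5.4% of the genes it tested.

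**Figure D1:**
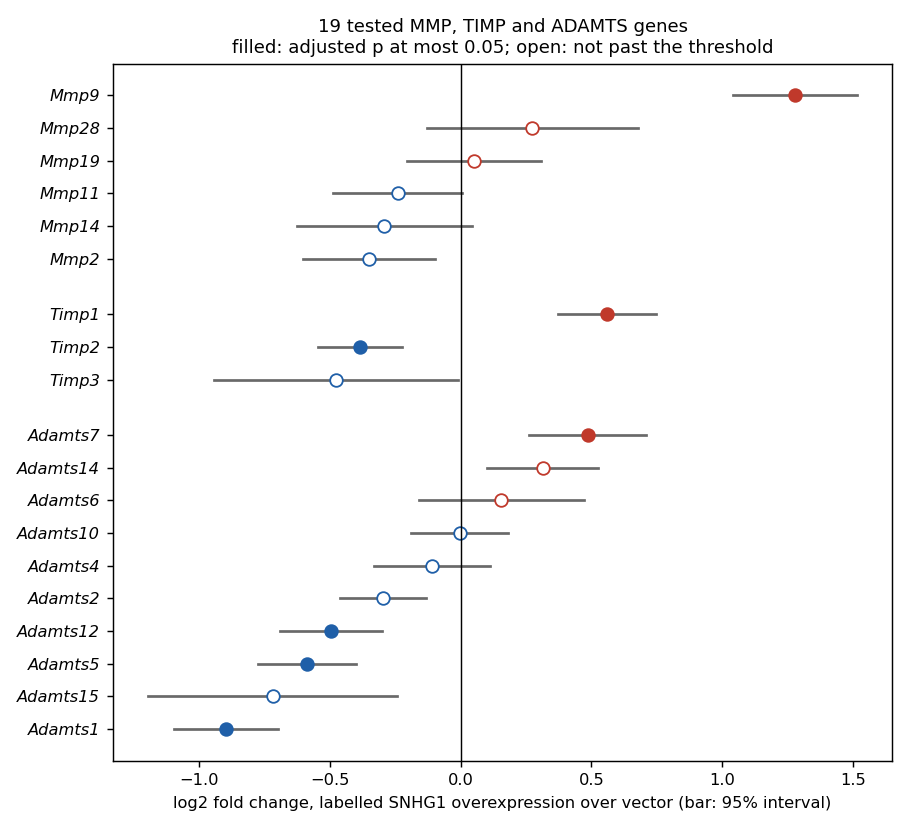
Log2 fold change of the 19 tested genes (x axis, labelled SNHG1 overexpression over vector, bars for the 95% interval), grouped into Mmp, Timp and Adamts genes (y axis). Filled points passed the edgeR test: Mmp9 at 1.28 lies farthest to the right and Adamts1 at -0.90 farthest to the left.

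Promoter sequences are shown for the genes that changed and have an entry in the promoter table used, because these are the stretches next to the starts of the transcripts whose levels differed. Of the 19 tested genes 10 were matched by symbol, among them Timp1, which rose, and Timp2, Adamts1 and Adamts12, which fell. Mmp9, Adamts7 and Adamts5 were not matched. Each line gives the 250 bases before the RefSeq transcript start on the gene's strand, in build GRCm38.p6. Capitals mark matches to the Sp1 core GGGCGG on either strand (CCGCCC on the other) and to the TATA box letters TATAAA on the gene's strand.
Timp1, chrX:20869916-20870165, plus strand: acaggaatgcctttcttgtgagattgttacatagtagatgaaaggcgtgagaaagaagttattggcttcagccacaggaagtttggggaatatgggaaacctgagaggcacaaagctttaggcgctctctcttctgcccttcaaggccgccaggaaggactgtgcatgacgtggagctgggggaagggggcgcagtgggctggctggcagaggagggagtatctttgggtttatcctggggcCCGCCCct
Timp2, chr11:118355412-118355661, minus strand: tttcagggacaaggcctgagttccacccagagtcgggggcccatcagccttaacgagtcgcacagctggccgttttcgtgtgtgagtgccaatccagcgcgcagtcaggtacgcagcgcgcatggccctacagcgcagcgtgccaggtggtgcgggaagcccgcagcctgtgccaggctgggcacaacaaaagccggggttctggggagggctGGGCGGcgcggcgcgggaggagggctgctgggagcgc
Adamts1, chr16:85803114-85803363, minus strand: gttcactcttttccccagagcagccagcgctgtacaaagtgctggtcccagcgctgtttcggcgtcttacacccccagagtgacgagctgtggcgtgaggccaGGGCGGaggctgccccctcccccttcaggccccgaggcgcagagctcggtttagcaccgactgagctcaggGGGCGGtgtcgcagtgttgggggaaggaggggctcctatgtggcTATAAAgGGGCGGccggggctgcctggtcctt
Adamts12, chr15:11064523-11064772, plus strand: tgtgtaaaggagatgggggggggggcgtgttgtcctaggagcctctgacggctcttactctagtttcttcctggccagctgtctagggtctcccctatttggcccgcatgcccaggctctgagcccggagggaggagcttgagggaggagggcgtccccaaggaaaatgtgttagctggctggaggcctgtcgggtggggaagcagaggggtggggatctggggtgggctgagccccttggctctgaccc
The Adamts1 window holds TATAAA with its first base 32 bases before the start and 3 Sp1 core matches, at 147, 76 and 25 bases before it. Timp2 has 1 Sp1 core match at 37 bases and Timp1 has 1 at 8 bases, on the opposite strand, while Adamts12 has neither motif. Over 32841 promoters of the same length in the table, 32.7% hold the Sp1 core and 7.59% hold TATAAA. The AP-1 motif TGANTCA and the NF-kappaB consensus, searched on both strands with no match overlapping another motif's match, were in 0 of the 10 windows, and in 6.75% and 7.25% of all promoters. These matches describe letters in a short window and are no evidence of binding or of its absence.

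Mmp9 encodes gelatinase B, a secreted protease that cuts denatured collagen and collagen IV. Mmp9 stood at 22.5, 21.4 and 20.7 CPM in SNHG1-labelled libraries and at 7.995, 9.28 and 9.43 CPM in vector libraries, from 439, 452 and 400 counts against 168, 144 and 174. Every labelled library lay above every vector library, and the spread within each group was under 1 CPM (SD). It rose 2.43-fold, with a log2 fold change of 1.28 ± 0.10 (SE, 95% interval 1.04 to 1.52) and an adjusted p of 0.00066 (edgeR). The call was kept in all 14 alternatives, with log2 fold changes of 1.20 to 1.32. Macrophages are a rich source of this enzyme in tissues. The 11 genes of the macrophage and blood cell list summed to 42.3 to 48.1 CPM in SNHG1-labelled and 33.8 to 34.8 CPM in vector libraries, and 1 of 4 tested members, Cd14, rose, where 2.4% of all genes tested passed in either direction. The log2 fold changes of the 4 ran from -0.47 for Csf1r, which did not pass, to 0.76 for Cd14. Cd14 averaged 24.3 CPM in SNHG1-labelled and 14.4 CPM in vector libraries, and Lyz2 averaged 15.3 CPM in both groups. Cd68 averaged 3.83 CPM in SNHG1-labelled and 2.47 CPM in vector libraries, and Csf1r 1.04 and 1.43 CPM. The members not tested were Tyrobp, Fcgr1, Cd3e, Itgam, Mrc1, Ptprc and Adgre1. Summed over the 6 libraries, their counts were 0, 1, 3, 6, 16, 25 and 28. The part of macrophages or other blood cells in the Mmp9 result was not tested, and in bulk libraries more cells of a type and more RNA per cell cannot be told apart.

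Timp1 encodes a secreted inhibitor of most MMPs, MMP9 among them, and of ADAM10. Timp1 (ENSMUSG00000001131, chromosome X, 20736405 to 20740974 in the authors' table, whose build is not named) had 1157, 1290 and 1136 counts in SNHG1-labelled libraries and 772, 696 and 744 in vector libraries. In CPM these were 59.4, 61.2 and 58.9 against 36.7, 44.9 and 40.3. The groups were clearly apart, with SNHG1-labelled libraries closer together than vector libraries. It rose 1.47-fold, a log2 fold change of 0.56 ± 0.08 (SE), with an adjusted p of 0.0141 (edgeR), and was called in 11 of 14 alternatives. The adjusted p was 0.0605 without SNHG1 overexpression replicate 2, 0.0529 without vector control replicate 1 and 0.0647 without vector control replicate 3, in a range of 1.68e-06 to 0.0647. Timp1 lies inside the span of Syn1, the synapsin I gene, which had 1312, 1549 and 1276 counts in SNHG1-labelled and 1604, 1049 and 1432 in vector libraries. The strand setting of the counting is not stated in the labels or headers, so reads of the overlapping genes may not have been told apart.

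Timp2 encodes an inhibitor that also bridges MMP14 to the MMP2 precursor at the cell surface, the step by which MMP2 is activated. Timp2 was by far the most abundant of the 46 genes. It stood at 1628, 1353 and 1525 CPM in SNHG1-labelled libraries and 1933, 1933 and 2014 CPM in vector libraries, so the groups did not overlap although replicate 1 of the labelled group came nearest to vector libraries. Timp2 fell by 0.38 on the log2 scale, ± 0.07 (SE), to a level 1.305-fold lower, with an adjusted p of 0.0321 (edgeR). It was called in 8 of 14 alternatives. Its adjusted p was 0.0759 to 0.126 with SNHG1 overexpression replicate 2 or 3, or vector control replicate 1, 2 or 3, left out, and 0.0106 without SNHG1 overexpression replicate 1.

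The inhibitors thus moved in opposite directions. Per 100 Timp2 counts, Timp1 had 3.65, 4.52 and 3.86 counts in SNHG1-labelled libraries and 1.90, 2.32 and 2.00 in vector libraries. Per 100 Timp1 counts, Mmp9 had 37.9, 35.0 and 35.2 counts in SNHG1-labelled and 21.8, 20.7 and 23.4 in vector libraries. The groups did not overlap in either ratio, and the two-sided exact permutation test gave p = 0.1 for each, the smallest that 3 against 3 libraries allow, and 0.2 after adjustment over the 4 ratios computed. For Timp1 per Timp2 this outcome was fixed beforehand, since the groups were already separate, in opposite directions, for both genes. For Mmp9 per Timp1 it also followed from the CPM ranges given above, since Mmp9 rose by more than Timp1 and both varied little within groups. Neither ratio is therefore a further test of the change. Timp3, which binds to the matrix and also inhibits ADAM17 and ADAMTS4 and ADAMTS5, had only 38, 38 and 43 counts in SNHG1-labelled libraries and 50, 40 and 62 in vector libraries. Its log2 fold change of -0.48 ± 0.20 (SE) did not pass (edgeR, adjusted p = 0.285). Timp4 had 1 count in SNHG1-labelled and 2 in vector libraries.

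**Figure D2:**
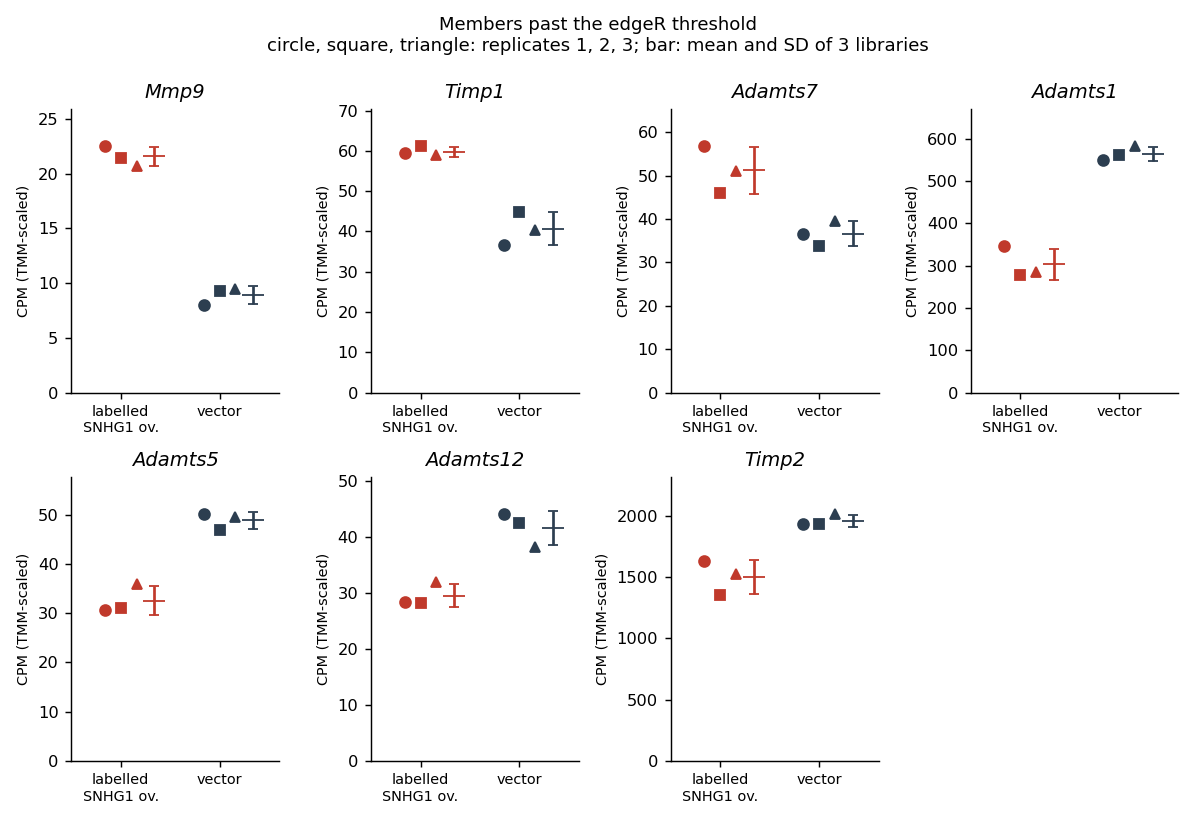
CPM (y axis, from 0, a scale per panel) of the 7 genes past the edgeR threshold, with each group's 3 replicates as circle, square and triangle and the bar for mean and SD. Labelled SNHG1 overexpression libraries are on the left and vector libraries on the right, and no panel has overlapping groups; Mmp9 averages 21.6 against 8.90 CPM and Adamts1 302.9 against 564.0 CPM.

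Among the ADAMTS genes the proteoglycan-cutting enzymes Adamts1 and Adamts5 fell. Adamts1 cleaves versican and aggrecan. Its counts were 6728, 5877 and 5493 in SNHG1-labelled libraries and 11533, 8693 and 10748 in vector libraries. That is 345, 279 and 285 CPM in SNHG1-labelled and 549, 560 and 583 CPM in vector libraries, with the highest labelled library far below the lowest vector library. It was 1.86-fold lower, with a log2 fold change of -0.90 ± 0.09 (SE, 95% interval -1.09 to -0.70) and an adjusted p of 0.00173 (edgeR), and it was called in all 14 alternatives. Adamts5, an aggrecan-cutting enzyme that is the main one in mouse cartilage, stood at 30.6, 31.1 and 36.0 CPM in SNHG1-labelled and 50.2, 46.9 and 49.6 CPM in vector libraries. The groups were again separate, and the log2 fold change was -0.59 ± 0.08 (SE), 1.501-fold lower, with an adjusted p of 0.0112 (edgeR). Adamts5 was called in 11 of 14 alternatives, and its adjusted p was 0.0518 without SNHG1 overexpression replicate 2 and 0.0595 and 0.0539 without vector control replicates 1 and 3. Adamts1 and Adamts5 are neighbours on chromosome 16 in the deposited table, where Adamts5 starts 53060 bases beyond the end of Adamts1. In that table Adamts1 (ENSMUSG00000022893) spans 85590715 to 85600001 and Adamts5 (ENSMUSG00000022894) spans 85653061 to 85698716. The versican and aggrecan cutter Adamts4 stood at 18.1 ± 1.63 CPM in SNHG1-labelled and 19.5 ± 0.759 CPM in vector libraries (SD, n = 3 each) and did not pass (edgeR, adjusted p = 0.589). Adamts15, of the same branch, had 40, 35 and 43 counts against 55, 56 and 66, a log2 fold change of -0.72 ± 0.21 (SE) that did not pass either (edgeR, adjusted p = 0.135).

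Adamts7 and Adamts12, relatives that both cleave the cartilage protein COMP, changed in opposite directions. Adamts7 stood at 56.9, 46.0 and 51.0 CPM in SNHG1-labelled and 36.6, 33.7 and 39.5 CPM in vector libraries. It rose by a log2 fold change of 0.49 ± 0.10 (SE), with an adjusted p of 0.0448 (edgeR), close to the threshold, and only 5 of 14 alternatives called it, though the groups did not overlap. The alternatives that lost the call included each single library left out (adjusted p = 0.0529 to 0.157), limma-voom (0.0522) and no filter (0.0653). Adamts12 stood at 28.4, 28.2 and 31.9 CPM in SNHG1-labelled libraries against 44.1, 42.5 and 38.3 CPM in vector libraries, also with no overlap. Its log2 fold change was -0.50 ± 0.08 (SE), 1.41-fold lower, with an adjusted p of 0.0242 (edgeR), and 10 of 14 alternatives called it. The alternatives that lost the call included those without SNHG1 overexpression replicate 2 (adjusted p = 0.106) and without vector control replicates 1 and 2 (0.106 and 0.0935). The span of Adamts7 overlaps that of Tbc1d2b, which had 660 to 728 counts in SNHG1-labelled and 500 to 652 in vector libraries. Over 8190 genes of at least 20 CPM, log2 fold changes were higher for GC-rich genes (Spearman's rho with GC content 0.378, over genes, which are no independent replicates). They were lower for genes with longer transcripts (rho with transcript length -0.282, over the same genes). The longest GENCODE transcripts of Adamts7 and Adamts12 are 57.8% and 46.8% GC, and that of Adamts5 is 43.7% GC. With GC and length trends removed, where 2.95% of all genes passed, all 7 calls were kept. The log2 fold changes were then 0.44 for Adamts7, -0.43 for Adamts12, -0.49 for Adamts5 and 0.48 for Timp1.

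The procollagen-trimming enzymes Adamts2 and Adamts14, which cut the amino-terminal propeptide from fibrillar procollagens, did not pass. Adamts2 was at 273, 248 and 233 CPM in SNHG1-labelled and 305, 298 and 323 CPM in vector libraries, without overlap, and its log2 fold change was -0.30 ± 0.07 (SE; edgeR, adjusted p = 0.0834). Adamts2 passed with DESeq2 (adjusted p = 0.0111), after removal of GC and length trends (0.0274) and without SNHG1 overexpression replicate 1 (0.0238). Adamts14 was at 41.8, 36.3 and 33.8 CPM in SNHG1-labelled and 30.8, 28.4 and 30.8 CPM in vector libraries, also without overlap, with a log2 fold change of 0.31 ± 0.09 (SE) and an adjusted p of 0.144 (edgeR). No alternative called it. Adamts3, the other enzyme of this branch, had no count. Adamts10 and Adamts6, which are tied to fibrillin microfibrils, had log2 fold changes of -0.003 and 0.16, with 95% intervals of -0.19 to 0.18 and -0.16 to 0.47. Neither passed (edgeR, adjusted p = 0.988 and 0.588).

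Mmp14 and Mmp2, the membrane protease and the gelatinase A precursor that it activates together with TIMP2, were the most abundant MMP genes. Mmp14 stood at 530, 357 and 362 CPM in SNHG1-labelled and 539, 491 and 498 CPM in vector libraries. Replicate 1 of the labelled group lay among vector libraries, and the other labelled libraries lay far below them. The log2 fold change was -0.29 ± 0.15 (SE; edgeR, adjusted p = 0.348), and without SNHG1 overexpression replicate 1 it was -0.50 with an adjusted p of 0.00564. Mmp2 stood at 257, 193 and 203 CPM in SNHG1-labelled and 268, 267 and 298 CPM in vector libraries, so its groups came close without overlapping. Its log2 fold change was -0.35 ± 0.11 (SE; edgeR, adjusted p = 0.166), with an adjusted p of 0.0396 by DESeq2 and of 0.0134, at -0.49, without SNHG1 overexpression replicate 1. The same library was the highest of its group for Timp2, Mmp14, Mmp2, Adamts1 and Adamts2. It was also the highest for Mmp9 and Adamts7, which rose, and for Adamts14, Mmp19, Mmp11 and Adamts4. For Adamts5 and Adamts10 it was the lowest, and for the other tested genes it lay in between. Per 100 Timp2 counts, Mmp2 had 14.5 ± 1.25 counts in SNHG1-labelled and 14.2 ± 0.572 in vector libraries, and Mmp14 had 27.6 ± 4.51 and 26.0 ± 1.66 (SD, n = 3 each). The groups overlapped in both ratios. The two-sided exact permutation test gave p = 0.8 for each, but with 3 against 3 libraries it cannot go below 0.1, so it does not show that the ratios were alike.

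**Figure D3:**
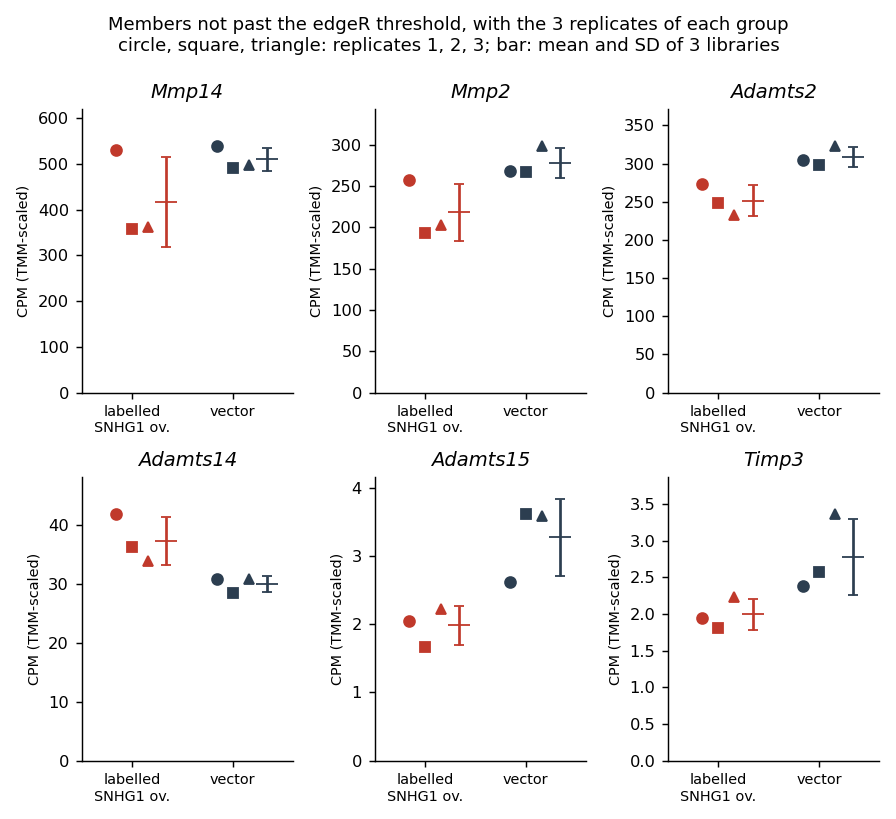
CPM (y axis, from 0, a scale per panel) of 6 genes that did not pass the edgeR threshold, with each group's 3 replicates as circle, square and triangle and the bar for mean and SD. For Mmp14 and Mmp2 the circle of the labelled group, on the left, stands at 530 and 257 CPM, above the square and triangle of its group and near vector libraries.

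The remaining tested MMP genes did not pass. Mmp11, or stromelysin-3, was at 24.4, 19.7 and 20.9 CPM in SNHG1-labelled and 23.4, 27.6 and 25.9 CPM in vector libraries, with overlapping groups and a log2 fold change of -0.24 ± 0.11 (SE; edgeR, adjusted p = 0.304). Mmp19 was at 28.2 ± 3.80 CPM in SNHG1-labelled and 27.2 ± 1.89 CPM in vector libraries, and Mmp28, or epilysin, at 9.65 ± 2.11 and 7.99 ± 0.735 CPM (SD, n = 3 each). Their log2 fold changes of 0.05 and 0.27 had 95% intervals of -0.20 to 0.31 and -0.13 to 0.68. Mmp19, Mmp28 and Mmp11 were called in none of the 14 alternatives.

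Levels per length were compared with the deposited FPKM values, counts per kilobase of gene length, scaled to the library total. Timp2 led with a mean of 297 ± 27.5 FPKM in SNHG1-labelled and 387 ± 9.60 FPKM in vector libraries (SD, n = 3 each). It made up 52.7 to 55.9% of the summed FPKM of the 46 genes in SNHG1-labelled libraries and 55.5 to 55.6% in vector libraries. Adamts1, Mmp14, Mmp2, Timp1 and Adamts2 followed in the mean over all 6 libraries, at 68.6, 57.3, 52.9, 36.3 and 29.1 FPKM, and then a step down led to Adamts14 at 5.68 FPKM. In SNHG1-labelled libraries alone Mmp14, Adamts1, Mmp2 and Timp1 had 51.6 ± 12.1, 48.0 ± 5.74, 46.6 ± 7.29 and 43.3 ± 0.841 FPKM, neighbours that do not differ beyond their spread. In vector libraries Adamts1 stood above these, at 89.1 ± 2.85 FPKM, and Timp1 below, at 29.3 ± 2.98 FPKM. Mmp9 had 5.48 ± 0.216 FPKM in SNHG1-labelled and 2.25 ± 0.204 FPKM in vector libraries, far under Mmp14 and Mmp2 in both groups. The gene lengths implied by the FPKM values were 1 to 3.54 times the longest GENCODE transcript. Scaled by that transcript instead, the first 6 genes were Timp2, Mmp14, Adamts1, Mmp2, Timp1 and Adamts2, so Mmp14 and Adamts1 changed places. The 19 Adamts genes together made up 16.8 to 17.8% of the summed FPKM in SNHG1-labelled and 20.4 to 20.6% in vector libraries, a sum led by Adamts1.

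**Figure D4:**
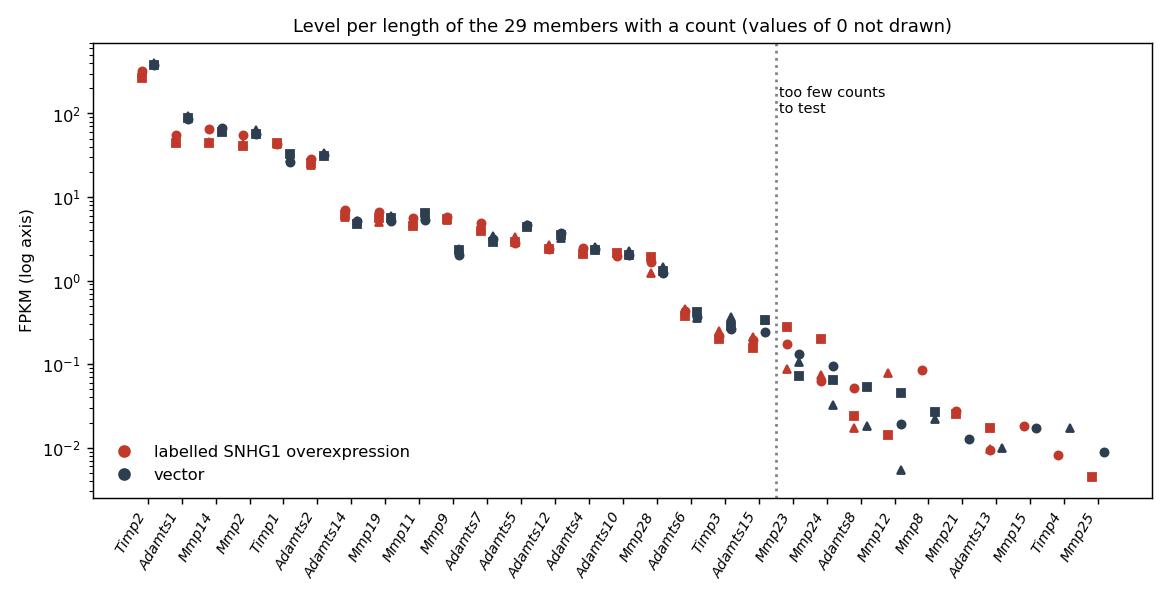
FPKM (y axis, log scale) of the 29 genes with a count, ordered by their mean over 6 libraries (x axis), with labelled SNHG1 overexpression libraries left of vector libraries for each gene and values of 0 not drawn. Timp2 stands alone near the top, 5 genes follow between 29.1 and 68.6 FPKM on average, and the 10 genes right of the dotted line had too few counts to test.

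Most collagenases and stromelysins had no count at this depth. The deposited table places 10 MMP genes side by side on chromosome 9, between 7272514 and 7699586. They are Mmp13, Mmp12, Mmp1b, Mmp3, Mmp1a, Mmp10, Mmp8, Mmp27, Mmp20 and Mmp7, and they include collagenases, stromelysins, matrilysin and enamelysin. Together they had 36 counts in 6 libraries, and 8 of them had none. The counts were those of Mmp12, the macrophage elastase, with 0, 3 and 15 in SNHG1-labelled and 4, 7 and 1 in vector libraries, and of Mmp8, the neutrophil collagenase, with 4, 0 and 0 against 0, 1 and 1. Outside this cluster, Mmp16, Mmp17, Adamts3, Adamts9, Adamts16, Adamts17, Adamts18, Adamts19 and Adamts20 had no count. A count of 0 allows up to 3 counts, or 0.142 to 0.155 CPM in SNHG1-labelled and 0.143 to 0.193 CPM in vector libraries, for counting error only. Of the genes with some counts that were too few to test, Mmp23 had 12, 21 and 6 in SNHG1-labelled and 10, 4 and 7 in vector libraries. Mmp24, a membrane-bound MMP, had 6, 21 and 7 against 10, 5 and 3, and its span overlaps that of Mmp24os1, which had 936 to 1046 counts in SNHG1-labelled and 708 to 912 in vector libraries. Adamts8, beside Adamts15 on chromosome 9, had 6, 3 and 2 against 0, 5 and 2 counts. The 6 others, Mmp8, Mmp15, Mmp21, Mmp25, Adamts13, which cuts von Willebrand factor, and Timp4, had 3 to 6 counts in all libraries together.

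Partners of these proteases were examined in 6 lists, whose counts stand beside the 2.4% of all genes tested that passed with edgeR, 1.54% that rose and 0.856% that fell, and 5.4% with DESeq2. Among ADAM proteases, membrane relatives that shed cell-surface proteins, 1 of 8 tested genes rose and 1 fell, with a median log2 fold change of -0.30. At an unadjusted p under 0.05 there were 4, and DESeq2 and limma-voom called 2 each. Adam10, a sheddase of Notch and many other receptors, was at 171 ± 14.1 CPM in SNHG1-labelled and 293 ± 19.96 CPM in vector libraries (SD, n = 3 each). It fell by 0.78 on the log2 scale, ± 0.08 (SE; edgeR, adjusted p = 0.00232), and was called in all 14 alternatives. Adam8 rose by 0.70 ± 0.11 (log2, SE; edgeR, adjusted p = 0.0154) and was called in 10. Adam17, which releases TNF, did not pass at 0.25 ± 0.13 (log2, SE; edgeR, adjusted p = 0.371).

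Of the cell-surface regulators and clearance genes 1 of 9 rose, the syndecan Sdc4, a heparan sulfate proteoglycan, by 0.60 ± 0.06 (log2, SE; edgeR, adjusted p = 0.00288). At an unadjusted p under 0.05 there were 5 of the 9, and DESeq2 and limma-voom called 2 and 1. The list's median was -0.009, and the MMP inhibitor Reck did not pass at -0.28 ± 0.09 (log2, SE; edgeR, adjusted p = 0.177). In the plasminogen activation list edgeR called 0 of 6 genes, against 4 at an unadjusted p under 0.05, 4 by DESeq2 and 0 by limma-voom, with a median of -0.03. The urokinase gene Plau was at -0.50 ± 0.10 (log2, SE; edgeR, adjusted p = 0.0519). Of the 4 tested proprotein convertase and procollagen processing genes, and of the 3 tested ADAMTS-like genes, edgeR, DESeq2 and limma-voom called 0, and 0 had an unadjusted p under 0.05. Their medians were -0.03 and -0.07, and Furin, which activates many MMP and ADAMTS precursors, was at -0.17 ± 0.10 (log2, SE; edgeR, adjusted p = 0.45).

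Of the matrix substrates, 0 of 17 tested genes rose and 5 fell, where 1.54% of all genes tested rose and 0.856% fell, with a median log2 fold change of -0.12. At an unadjusted p under 0.05 there were 7, and DESeq2 and limma-voom called 6 and 5. Those that fell were Thbs1, Col3a1, Fn1, Col1a2 and Col5a2, with log2 fold changes of -1.28, -0.52, -0.36, -0.30 and -0.28. Their adjusted p-values were 0.0154, 0.0103, 0.00996, 0.00797 and 0.0321 (edgeR). Each lost its call with some single libraries left out. Without vector control replicate 3 the adjusted p was 0.0514 for Col3a1 and 0.132 for Col5a2 (edgeR), and Col5a2 also lost its call with no filter (0.0682). Versican Vcan, a substrate of Adamts1, Adamts5 and Adamts4, was at 571 ± 23.5 CPM in SNHG1-labelled and 591 ± 17.6 CPM in vector libraries (SD, n = 3 each) and did not pass (edgeR, adjusted p = 0.668). Aggrecan Acan had no count, and Comp, a substrate of Adamts7 and Adamts12, was at 1.19 ± 0.497 CPM in SNHG1-labelled and 1.34 ± 0.320 CPM in vector libraries (SD, n = 3 each; edgeR, adjusted p = 0.834).

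**Figure D5:**
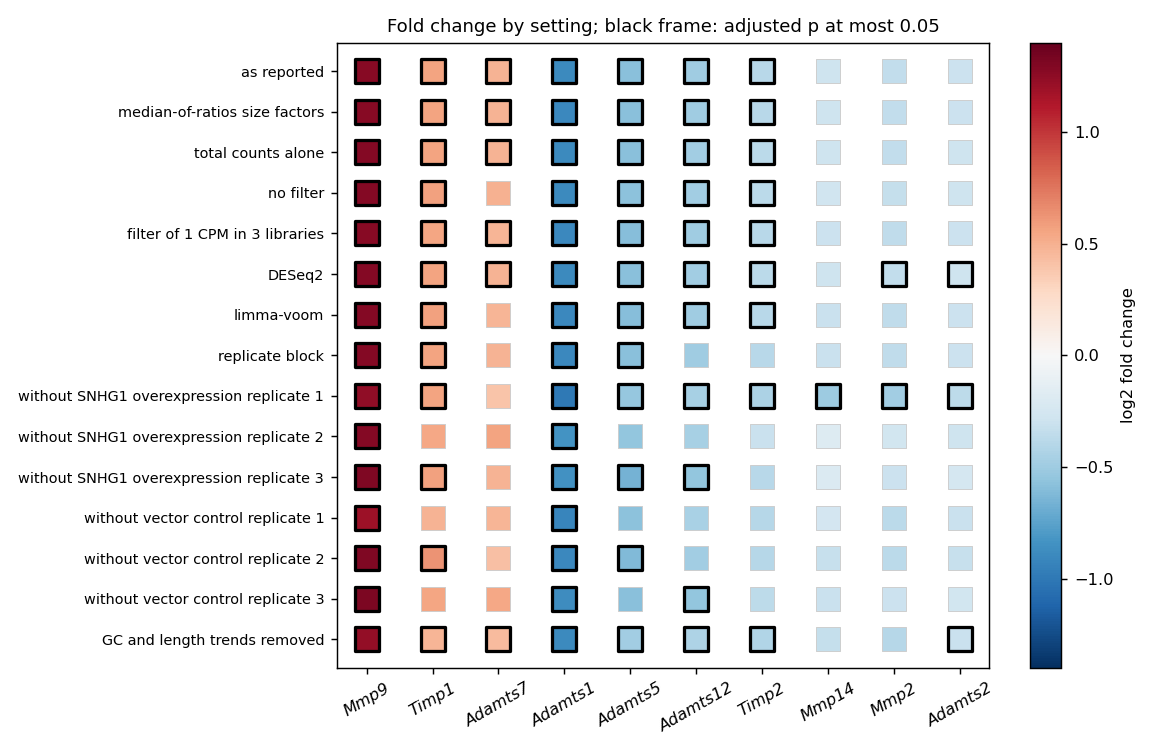
Log2 fold change (colour) of the 7 called genes and of Mmp14, Mmp2 and Adamts2 (x axis) as reported and under each of 14 alternatives (y axis), with a black frame where the adjusted p was at most 0.05. Mmp9 and Adamts1 are framed in every line, Adamts7 in 5 of the alternatives, and Mmp14 only without SNHG1 overexpression replicate 1.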

How the data were processed

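Libraries were poly(A)-selected and made with a stranded kit, per the labels' protocols, and HISAT2, SAMtools 1.3.1, StringTie and the build GRCh38 are named in the submitters' processing notes, whereas the identifiers are of mouse. The authors deposited whole-number counts and FPKM values per gene for each of 6 libraries. The build of the coordinates, the counter and the strand setting it used are not stated in the labels or headers. Libraries were grouped by title. Counts were tested in edgeR 4.0.16 (R 4.3.3) by quasi-likelihood, with TMM factors, the default filterByExpr filter and group as the only term, with Benjamini-Hochberg adjustment at 0.05. CPM values use TMM-scaled library sizes. Standard errors are the fold change over the square root of F. The pipeline was tested on simulated counts, where it called 73% of 2-fold changes, 47% of 1.5-fold changes and 8 of 14405 unchanged genes. A gene that did not pass may therefore still have changed. Alternatives were median-of-ratios factors, total counts, no filter, 1 CPM in 3 libraries, DESeq2 1.42.0, limma-voom (limma 3.58.1), a replicate block, each library left out and, added after seeing the data, removal of GC and length trends, 14 in all. The labels do not state that replicate numbers pair the libraries. Genes, lists and tests were chosen with earlier results of these data known. Full values went to genes that passed, to the 10 most abundant and to genes called in an alternative or at an unadjusted p under 0.05. List genes were named if called, up to 3 per direction. Others (Adam17, Reck, Plau, Furin, Vcan, Acan, Comp, Csf1r, Cd68, Lyz2, Tyrobp, Fcgr1, Cd3e, Itgam, Mrc1, Ptprc, Adgre1, Col1a2, Col5a2, Mmp24os1) were named after their values were seen. So were the spermatogonial markers without a count. Of the marker lists, there were 0 calls among 5 Sertoli, 2 Leydig, 2 spermatogonial and 1 endothelial genes tested. Of these, 0 had an unadjusted p under 0.05 and 0 were called by DESeq2 or limma-voom. In the peritubular and fibroblast-like list 1 of 6 rose, Pdgfra, and 1 fell, Col1a2, where 1.54% of all genes tested rose and 0.856% fell. At an unadjusted p under 0.05 there were 3 of the 6, and DESeq2 and limma-voom called 2 each.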

Additional observations from a re-analysis of the deposited data

How the results depend on the processing

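Mmp9 and Adamts1 kept their call in all 14 alternatives, and no value of the 7 called genes changed direction in any. Over all genes, 350 calls became 690 with DESeq2 and 163 with a replicate block, and ran from 123 to 807 with single libraries left out. Of the 19 tested MMP, TIMP and ADAMTS genes, 7 calls became 4 with a replicate block, which lost Timp2, Adamts7 and Adamts12 (edgeR, adjusted p = 0.0574, 0.0629 and 0.0978), and ran from 2 to 9 with single libraries left out, 2 of them without SNHG1 overexpression replicate 2 and without vector control replicate 1. Over all genes the count was 807 without SNHG1 overexpression replicate 1. With replicate 2 or 3 of that group left out it was 162 or 176, and with vector control replicate 1, 2 or 3 left out it was 123, 151 or 143. These fits hold fewer libraries; why 807 is above 350 was not tested. The deviations of same-numbered libraries correlated at 0.03, -0.15 and -0.06, and those of the other pairs at -0.10 to 0.16. A pairing is not shown, but with so few libraries these values cannot exclude one. The other settings with all libraries called 264 to 420 genes and 6 to 8 of the 19, and DESeq2 called 9. At this depth 27 of the 46 genes had too few counts to be tested.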
